A study of Mus musculus with 6 samples.

Results

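The genes described here are the 45 nuclear genes of respiratory complexes II to V, out of 27480 gene rows in the deposited table, measured in mouse OT1 CD8+ T cells. They are the rows with a protein-coding transcript whose gene names are Sdha to Sdhd, Cyc1 or Atpif1, or begin with Uqcr, Cox4 to Cox8, or Atp5. Complex II contributed 4 genes, complex III 9, complex IV 14 and complex V 18. The row Cox5b-ps is named as a pseudogene and was kept because it lists a coding transcript, while 9 further pseudogene copies without one were left out. OT1 cells are killer T cells with a transgenic receptor for a peptide of ovalbumin (OVA). The 6 libraries are 3 of cells with a PTMA overexpression construct (PTMA 1 to 3) and 3 of cells with the empty overexpression vector (vector 1 to 3). All 6 carry the genotype label WT and were stimulated with OVA peptide for 48 h. PTMA is prothymosin alpha, a small acidic nuclear protein. The sources used here do not name the promoter or species of the construct. Nor do they say whether replicates of a group were separate cultures or animals, and the p-values may thus reflect technical spread alone.

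Oxidative phosphorylation takes place in the inner mitochondrial membrane. Complexes II, III and IV pass electrons from succinate through coenzyme Q and cytochrome c to oxygen, complexes III and IV pump protons as they do so, and complex V (ATP synthase) uses the proton gradient to make ATP. Apart from complex II, each complex also holds subunits encoded in mitochondrial DNA, which are not among the 45 genes. In CD8+ T cells, stimulation through the receptor is known to be followed by growth of the mitochondria and of their respiration as well as of glycolysis.

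None of the 45 genes passed the test of PTMA against vector. Fitted differences ran from -7.91% (Cox5b-ps) to 13.5% (Uqcrc1) in all genes but Cox7a1, which was at 56.4% with as few as 9 counts in a library. Complexes II, III and V had small positive median log2 fold changes (0.10, 0.07 and 0.04) and complex IV a median of -0.02, beside -0.01 for all genes tested. Tested coding genes with main transcripts of 204 to 1832 bases, where most of the 45 fall, had a median of 0.05. The clearest pattern was between single libraries of 1 group. Vector 3 was the highest of the 6 libraries in 32 of the 45 genes and vector 2 the lowest in 38. The direction of the comparison turned on single libraries in most of the genes.

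Promoter windows of 4 genes are shown because they hold recognition sequences of factors known to act on respiratory genes. Uqcrc1 had the smallest p-value of the 45 genes, Sdhd and Cox6a1 the highest FPKM of their complexes, and Atp5g3 the most counts of the c ring genes. Uqcr10 and Atp5b, with the highest FPKM of complexes III and V, held none of these recognition sequences and are not shown. RefSeq promoters (GRCm38.p6) could be matched by symbol for 35 of the 45 genes. Each window below holds 250 bases before the start and the first 30 transcribed bases, 5′ to 3′ on the strand of the gene. Capitals mark matches, on either strand, to GCGCANGCG (recognised by NRF1, nuclear respiratory factor 1) or to CCGGAAG (ETS factors, which include GABP). Sdhd lies at chr9:50603820-50604099 on the minus strand, Uqcrc1 at chr9:108936398-108936677 on the plus strand, Cox6a1 at chr5:115348929-115349208 on the minus strand and Atp5g3 at chr2:73911297-73911576 on the minus strand.
Sdhd: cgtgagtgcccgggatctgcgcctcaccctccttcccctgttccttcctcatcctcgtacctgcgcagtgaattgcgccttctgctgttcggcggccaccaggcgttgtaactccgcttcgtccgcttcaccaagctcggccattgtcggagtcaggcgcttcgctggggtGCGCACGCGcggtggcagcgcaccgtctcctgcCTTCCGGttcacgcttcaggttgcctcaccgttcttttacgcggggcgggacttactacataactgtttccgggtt
Uqcrc1: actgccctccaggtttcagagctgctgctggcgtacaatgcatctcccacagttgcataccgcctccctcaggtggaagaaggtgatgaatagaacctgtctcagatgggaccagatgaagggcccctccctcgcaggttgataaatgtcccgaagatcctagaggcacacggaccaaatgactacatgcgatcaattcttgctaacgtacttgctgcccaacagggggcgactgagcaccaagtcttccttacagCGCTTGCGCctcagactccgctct
Cox6a1: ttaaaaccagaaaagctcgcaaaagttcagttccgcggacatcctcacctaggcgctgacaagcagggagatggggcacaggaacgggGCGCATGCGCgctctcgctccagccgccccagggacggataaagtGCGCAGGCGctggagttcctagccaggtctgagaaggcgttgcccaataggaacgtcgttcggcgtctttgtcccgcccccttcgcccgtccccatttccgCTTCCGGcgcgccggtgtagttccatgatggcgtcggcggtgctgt
Atp5g3: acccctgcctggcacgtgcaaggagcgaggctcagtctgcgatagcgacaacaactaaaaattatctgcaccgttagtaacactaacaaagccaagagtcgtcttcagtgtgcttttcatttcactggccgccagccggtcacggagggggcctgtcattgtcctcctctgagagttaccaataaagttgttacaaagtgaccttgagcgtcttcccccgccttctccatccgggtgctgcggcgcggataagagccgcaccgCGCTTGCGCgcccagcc

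In Sdhd, an anchor subunit of complex II, an NRF1 match began 79 bases and an ETS match 46 bases before the start. Cox6a1, a subunit of complex IV, held 3 NRF1 matches, which began 162, 161 and 117 bases before the start, the first 2 of which overlap on opposite strands, and an ETS match at 16 bases before it. In Uqcrc1, a core subunit of complex III, and Atp5g3, a gene of the ATP synthase c ring, an NRF1 match lay 6 and 13 bases after the first transcribed base. Uqcrc1 had a further overlapping pair of NRF1 matches from 30 bases after it, beyond the window shown. Over the full RefSeq windows of 300 bases, 13 of the 35 genes (37.1%) held GCGCANGCG, beside 15.4% of 9864 tested coding genes and 7.03% of all 27025 genes with a promoter. CCGGAAG was also found in 13 of 35 (37.1%), beside 20.5% and 9.93%. AAGATGGCG, a YY1 sequence, was found in 2 of 35 (5.71%), Atp5j and Atp5j2, beside 3.61% and 1.64%. CCGGAAG can overlap AAGATGGCG by its last 3 letters. In all, 21 of 35 genes (60.0%) held at least 1 of them, beside 34.5% of tested coding genes. The median GC content of the windows was 56.3% in the 35 genes and 60.3% in tested coding genes. A match is a description of letters and was not tested for binding.

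The libraries held 54989408 to 66767589 counts each. Levels are given as counts scaled to library size (CPM, scaled by the TMM method), and levels between genes as the deposited FPKM, which also divide by gene length. Ptma itself stood at 1152, 1346 and 1272 CPM in PTMA 1 to 3, against 848, 783 and 1146 CPM in vector 1 to 3, with a log2 fold change of 0.44 (SE 0.13, adjusted p = 0.951) that did not pass the test. Its PTMA libraries lay above its vector libraries, the nearest pair being PTMA 1 and vector 3, and processed pseudogenes of Ptma can share its reads. Markers of T cells (Cd3d, Cd3e, Cd3g, Cd8a, Cd8b1, Cd2 and Lck) summed to 5551 to 5975 CPM in PTMA and 5447 to 5949 CPM in vector libraries. The other marker lists stood below 30 CPM, and of them the 3 oocyte markers summed to 0.801 to 1.91 CPM in PTMA and 15.4 to 27.6 CPM in vector libraries, and 2 keratinocyte markers to 0 to 6.53 and 0 to 19.3 CPM. B cell markers summed to 5.37 to 6.69 CPM in PTMA and 3.95 to 4.95 CPM in vector libraries. Their part in the results below was not tested. The extraction protocol names an adipose type. Of 6 adipocyte markers looked up, only Adipoq had a row. Adipoq was at 0 CPM in PTMA and at most 0.214 CPM in vector libraries. In bulk RNA, fewer cells of a type and less RNA per cell cannot be told apart.

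All 45 genes passed the filter on low counts and entered the test over 16592 genes. With edgeR's quasi-likelihood test and Benjamini-Hochberg adjustment, 0 of 45 passed an adjusted p of 0.05, where 0.0121% of all genes tested did. DESeq2 and limma on log2(FPKM + 1) also called 0 of them. Uqcrc1 was the 1 gene with an unadjusted p under 0.05, where 4.65% of all genes tested passed that mark. DESeq2 gave the same 1 gene at that mark, and limma 0 of 44 tested. The 3 PTMA libraries all lay above the 3 vector libraries in 3 of the 45 genes (Cyc1, Atp5b and Atp5d), beside 5.39% of all genes tested. They all lay below in 0 of 45, beside 5.38%. Log2 fold changes were positive in 28 genes (62.2%) and negative in 17, with a median of 0.02 and a median SE of 0.11. Of all genes tested, 46.8% were positive. Among tested coding genes with the shortest main transcripts (204 to 1832 bases), where most of the 45 fall, 64.4% were positive. With libraries scaled to the same sum in place of TMM, 22 were positive and 23 negative.

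**Figure D1:**
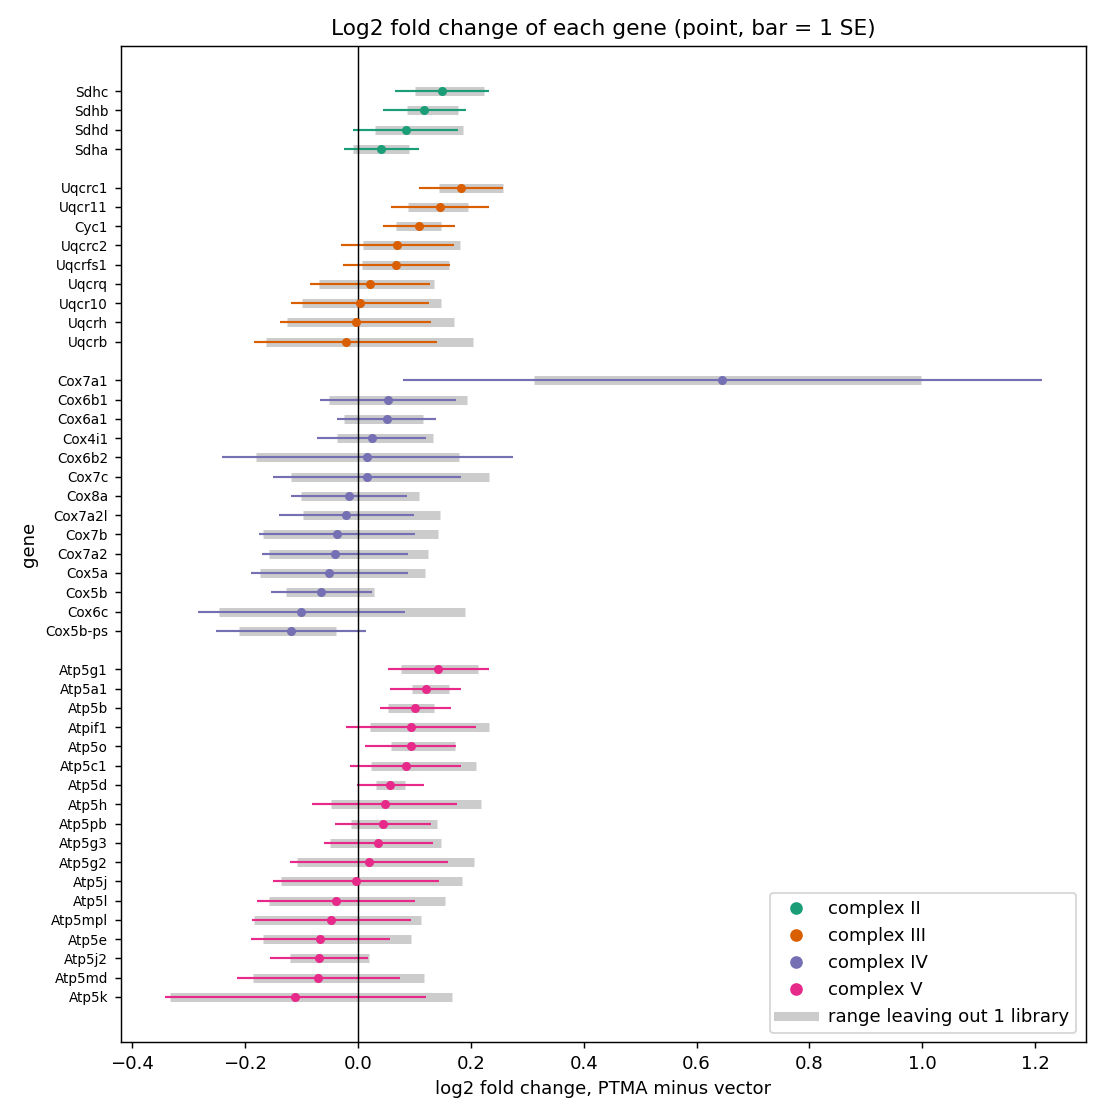
Log2 fold change, PTMA minus vector, of each of the 45 genes on the x axis, grouped by complex and ordered within it. Points are the fitted values, coloured bars 1 SE (n = 3 libraries per group) and grey bars the range when each library is left out in turn. Cox7a1 at 0.65 rests on as few as 9 counts in a library, and the other genes lie between -0.12 and 0.18.

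Complex II (succinate dehydrogenase) is the only respiratory complex made wholly from nuclear genes, and all 4 of its genes had positive log2 fold changes, none past the test, and 3 of 4 without vector 3. Sdha, the flavoprotein that oxidises succinate, stood at 526, 536 and 541 CPM in PTMA 1 to 3, against 530.0, 547 and 481 CPM in vector 1 to 3. Its vector libraries lay both above and below the PTMA libraries (log2 fold change 0.04, SE 0.07, adjusted p = 0.958). Sdhb, the iron-sulfur subunit that takes the electrons onward, stood at 322, 329 and 296 CPM in PTMA 1 to 3, against 284, 277 and 312 CPM in vector 1 to 3. Here vector 1 and vector 2 lay below every PTMA library and vector 3 among them (0.12, SE 0.07, adjusted p = 0.951). Sdhc, a membrane anchor at the coenzyme Q site, stood at 181, 194 and 172 CPM in PTMA 1 to 3, against 161, 152 and 180.5 CPM in vector 1 to 3. It had the smallest p and the largest log2 fold change of the complex (0.15, SE 0.08, adjusted p = 0.951), and its vector 3 value lay inside the PTMA range. Sdhd, the other anchor, had the highest level per length of the complex, with 156 ± 9.51 FPKM in PTMA and 147 ± 12.5 FPKM in vector libraries (SD, n = 3 each). Its counts gave 202, 230.0 and 210.2 CPM in PTMA 1 to 3, against 189.6, 187 and 229 CPM in vector 1 to 3, and vector 3 lay within the PTMA range (0.08, SE 0.09, adjusted p = 0.953).

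In complex III (the cytochrome bc1 complex), the 4 genes of catalytic and core subunits had positive log2 fold changes, none past the test, and those of the 5 small subunits had no common direction. Uqcrc1, a core subunit (ENSMUSG00000025651, chromosome 9, 108936633 to 108949623), stood at 682, 674 and 595 CPM in PTMA 1 to 3, against 576, 603 and 540.1 CPM in vector 1 to 3. PTMA 1 and 2 lay above every vector library, while PTMA 3 lay below vector 2, so the groups overlapped. Its log2 fold change of 0.18 (SE 0.08) was the largest of the complex and its unadjusted p the smallest of the 45 genes, at 0.0383 in edgeR, with an adjusted p of 0.951. Uqcrc1 was 1 of 3 genes in which vector 3 was below vector 2. Uqcrc2, the other core subunit, stood at 190.3, 221 and 202 CPM in PTMA 1 to 3, against 185, 176 and 224 CPM in vector 1 to 3, with vector 3 the highest library. Cyc1, cytochrome c1, which hands electrons to cytochrome c, stood at 258, 259 and 262 CPM in PTMA 1 to 3, against 228, 242 and 253 CPM in vector 1 to 3. All 3 PTMA libraries lay above all 3 vector libraries, PTMA 1 and vector 3 being nearest (0.11, SE 0.06, adjusted p = 0.951). Uqcrfs1, the Rieske iron-sulfur protein, stood at 121, 134 and 136 CPM in PTMA 1 to 3, against 121, 112 and 139.6 CPM in vector 1 to 3, and the groups overlapped (0.07, SE 0.09, adjusted p = 0.956).

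Uqcr10, a small subunit, had the highest level per length of complex III, with 147 ± 9.96 FPKM in PTMA and 146 ± 20.1 FPKM in vector libraries (SD, n = 3 each). Its counts gave 89.4, 103 and 94.3 CPM in PTMA 1 to 3, against 92.9, 80.2 and 113 CPM in vector 1 to 3, so that both extremes were vector libraries. Uqcrb, known as a ubiquinone-binding subunit, showed the same extremes more widely, with 66.7, 74.0 and 64.9 CPM in PTMA 1 to 3, against 64.9, 54.3 and 89.6 CPM in vector 1 to 3. Uqcrh, the hinge protein, and Uqcrq, another small subunit, likewise had vector 3 highest and vector 2 lowest, and their log2 fold changes were 0.00 and 0.02. Uqcr11 differed from the other small subunits in that PTMA 2 was its highest library, with 87.8, 96.6 and 85.6 CPM in PTMA 1 to 3, against 83.9, 73.8 and 86.5 CPM in vector 1 to 3 (0.15, SE 0.09, adjusted p = 0.951). In all 5 small subunits vector 2 was the lowest library.

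Cytochrome c oxidase, complex IV, had the widest spread between vector libraries of the 4 complexes relative to its level. Its 10 ubiquitous subunits, Cox4i1, Cox5a, Cox5b, Cox6a1, Cox6b1, Cox6c, Cox7a2, Cox7b, Cox7c and Cox8a, are nuclear subunits that surround the mitochondrially encoded core. In 10 of these 10 genes vector 3 was the highest and vector 2 the lowest of the 6 libraries. Cox4i1, whose hypoxia-related paralog Cox4i2 had no row with a coding transcript, stood at 362, 353 and 317 CPM in PTMA 1 to 3, against 324, 305 and 387 CPM in vector 1 to 3. Cox6a1 had the highest level per length of the complex, with 322 ± 13.5 FPKM in PTMA and 310.2 ± 21.3 FPKM in vector libraries (SD, n = 3 each). Its counts gave 261, 256 and 238 CPM in PTMA 1 to 3, against 251, 213 and 264 CPM in vector 1 to 3, and the PTMA libraries lay inside the vector range (0.05, SE 0.09, adjusted p = 0.960). Cox6c showed the widest gap of the 10, with 103, 115 and 107 CPM in PTMA 1 to 3, against 101, 90.2 and 159 CPM in vector 1 to 3. The PTMA libraries lay close together inside the range of the vector libraries, and the log2 fold change was -0.10, SE 0.18, adjusted p = 0.964. Log2 fold changes over the 10 genes ran from -0.10 to 0.05, 4 positive and 6 negative, with a median of -0.03.

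Cox7a2l, a relative of Cox7a2 known as an assembly factor of supercomplexes of complexes III and IV, stood at 169, 184 and 182 CPM in PTMA 1 to 3, against 164, 159 and 219.9 CPM in vector 1 to 3. Its vector 3 value was the highest and its vector 2 value the lowest, as in the ubiquitous subunits. The heart and muscle isoform Cox7a1 was at a very low level, with 0.601, 0.337 and 0.335 CPM in PTMA 1 to 3, against 0.286, 0.139 and 0.387 CPM in vector 1 to 3, resting on as few as 9 counts in a library. It had the largest log2 fold change of the 45 genes and the smallest p of complex IV, with an SE nearly as large (0.65, SE 0.57, adjusted p = 0.952), and its groups overlapped. The testis isoform Cox6b2 stood at 2.25, 1.78 and 2.97 CPM in PTMA 1 to 3, against 2.61, 2.28 and 2.03 CPM in vector 1 to 3, and here PTMA 2 was lowest and PTMA 3 highest. Sums of 3 striated muscle markers (1.38 to 1.96 CPM in PTMA, 1.55 to 1.61 CPM in vector libraries) and of 2 spermatid markers (1.25 to 1.46 and 1.07 to 1.59 CPM) were similarly low. The tissue isoforms Cox6a2, Cox7b2, Cox8b and Cox8c had no row with a coding transcript and were not analysed here. Cox5b and Cox5b-ps are near-identical copies. Over 390 aligned bases of their GENCODE M21 transcripts 387 were identical (99.2%), with a shared run of 147 bases, so their counts can share reads. Cox5b stood at 116, 119 and 109.7 CPM in PTMA 1 to 3, against 118, 108 and 135 CPM in vector 1 to 3 (log2 fold change -0.06, SE 0.09). Cox5b-ps stood at 11.8, 12.7 and 11.1 CPM in PTMA 1 to 3, against 13.4, 11.0 and 14.3 CPM in vector 1 to 3 (-0.12, SE 0.13). In both, vector 3 was the highest and vector 2 the lowest library.

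ATP synthase, complex V, has an F1 head that makes ATP, a rotating c ring and other membrane subunits, and a peripheral stalk that holds the head still. In the F1 head, 4 of 5 genes had a log2 fold change above 0, and the median was 0.08. Atp5b encodes the catalytic beta subunit and had the highest FPKM of the 45 genes, with 341 ± 20.9 FPKM in PTMA and 318 ± 14.8 FPKM in vector libraries (SD, n = 3 each). Its counts gave 1715, 1540.1 and 1563 CPM in PTMA 1 to 3, against 1455, 1505 and 1531 CPM in vector 1 to 3. The PTMA libraries all lay above the vector libraries, PTMA 2 and vector 3 being nearest (0.10, SE 0.06, adjusted p = 0.951). Atp5a1, the alpha subunit, stood at 1083, 1043 and 1013 CPM in PTMA 1 to 3, against 947, 925 and 1017 CPM in vector 1 to 3. It had the smallest p of complex V (0.12, SE 0.06, adjusted p = 0.951), and PTMA 3 lay just below vector 3. Atp5d, the delta subunit of the central stalk, stood at 269, 254 and 256 CPM in PTMA 1 to 3, against 248, 250.5 and 251 CPM in vector 1 to 3, without overlap and with the narrowest vector range of the complex (0.06, SE 0.06, adjusted p = 0.953). Atp5c1, the gamma subunit that turns within the head, overlapped, with vector 3 highest at 435 CPM and vector 1 lowest at 342 CPM. Atp5e, the epsilon subunit, was the head gene with a negative value, with 82.7, 85.5 and 79.8 CPM in PTMA 1 to 3, against 82.4, 72.8 and 105 CPM in vector 1 to 3 (-0.07, SE 0.12, adjusted p = 0.965).

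The c ring is built from 1 mature protein that 3 genes encode with different import sequences. The ends of their coding sequences are shown because they show how far the 3 transcripts can be told apart by reads. Each run is the last 90 coding bases before the stop codon in the main GENCODE M21 transcript on GRCm38 (chromosome 11, 15 and 2 in order), and capitals mark the 24 positions at which the 3 are not all the same.
Atp5g1: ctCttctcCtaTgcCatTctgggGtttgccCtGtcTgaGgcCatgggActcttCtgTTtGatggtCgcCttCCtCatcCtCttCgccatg
Atp5g2: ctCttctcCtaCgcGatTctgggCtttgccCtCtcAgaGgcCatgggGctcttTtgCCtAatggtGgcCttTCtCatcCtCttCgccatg
Atp5g3: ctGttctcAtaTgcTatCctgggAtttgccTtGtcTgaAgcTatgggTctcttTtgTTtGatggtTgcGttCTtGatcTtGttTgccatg

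The last 78 encoded residues were identical in all 3, while these bases were 74.4% to 86.7% identical between pairs. The longest run shared by 2 of the main transcripts was 21 bases, so longer runs are not shared between them. Of the summed CPM of the 3 genes, Atp5g1 held 25.0% ± 1.32 in PTMA and 23.8% ± 1.41 in vector libraries, Atp5g2 16.1% ± 0.263 and 16.4% ± 1.35, and Atp5g3 58.9% ± 1.28 and 59.8% ± 0.0662 (SD, n = 3 each). Each share differed between groups by less than the SD of at least 1 of them. Atp5g1 itself stood at 135, 149 and 126 CPM in PTMA 1 to 3, against 126, 113 and 133 CPM in vector 1 to 3, and had the largest log2 fold change of complex V (0.14, SE 0.09, adjusted p = 0.951). Atp5g2 stood at 85.2, 91.2 and 86.4 CPM in PTMA 1 to 3, against 82.9, 69.2 and 107 CPM in vector 1 to 3 (0.02, SE 0.14, adjusted p = 0.991). Atp5g3 stood at 320.0, 325 and 319 CPM in PTMA 1 to 3, against 310.5, 270.4 and 359 CPM in vector 1 to 3 (0.04, SE 0.10, adjusted p = 0.978). The vector range enclosed all 3 PTMA libraries for Atp5g2 and Atp5g3, and for Atp5g1 PTMA 1 and 2 lay above every vector library.

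Among the genes of the peripheral stalk, Atp5pb (subunit b), Atp5h (subunit d), Atp5j (coupling factor 6) and Atp5o (the OSCP subunit at the top of the head), log2 fold changes ran from 0.00 to 0.09 and 3 of 4 were positive. Vector 3 was the highest and vector 2 the lowest library in all 4. The 5 small membrane subunits Atp5j2, Atp5k, Atp5l, Atp5md and Atp5mpl, several of which are known to hold ATP synthase dimers together, all had negative log2 fold changes, from -0.11 to -0.04, whereas without vector 3 all 5 were positive. Summed over these 5 genes, the level was 268, 277 and 269 CPM in PTMA 1 to 3, against 271, 237 and 339 CPM in vector 1 to 3. The PTMA libraries lay close together inside the vector range. Atp5k, at 8.24, 8.78 and 8.79 CPM in PTMA 1 to 3, against 9.29, 6.09 and 12.5 CPM in vector 1 to 3, had the widest gap between vector libraries of all genes but Cox7a1. Atpif1, the inhibitor that stops ATP synthase from running in reverse, stood at 92.1, 102 and 88.1 CPM in PTMA 1 to 3, against 82.7, 77.8 and 104 CPM in vector 1 to 3 (0.09, SE 0.12, adjusted p = 0.955).

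Ratios within families were compared with an exact two-sided permutation test, for which 3 libraries against 3 allow no p under 0.1. Over 7 ratios, Cox7a1 over Cox7a2 reached that p of 0.1 (0.7 after Benjamini-Hochberg adjustment), with Cox7a1 at the few counts given above. The ratios of Cox6b1 to Cox6b2, between the 3 c ring genes, and of Atpif1 to Atp5a1 or Atp5b had p-values of 0.4 to 1 (adjusted 1). The ratio of Atpif1 to Atp5b was 0.0537, 0.0664 and 0.0563 in PTMA 1 to 3 and 0.0569, 0.0517 and 0.068 in vector 1 to 3, a mean log2 difference of 0.00. Several of the 7 ratios share a gene and are not independent.

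**Figure D2:**
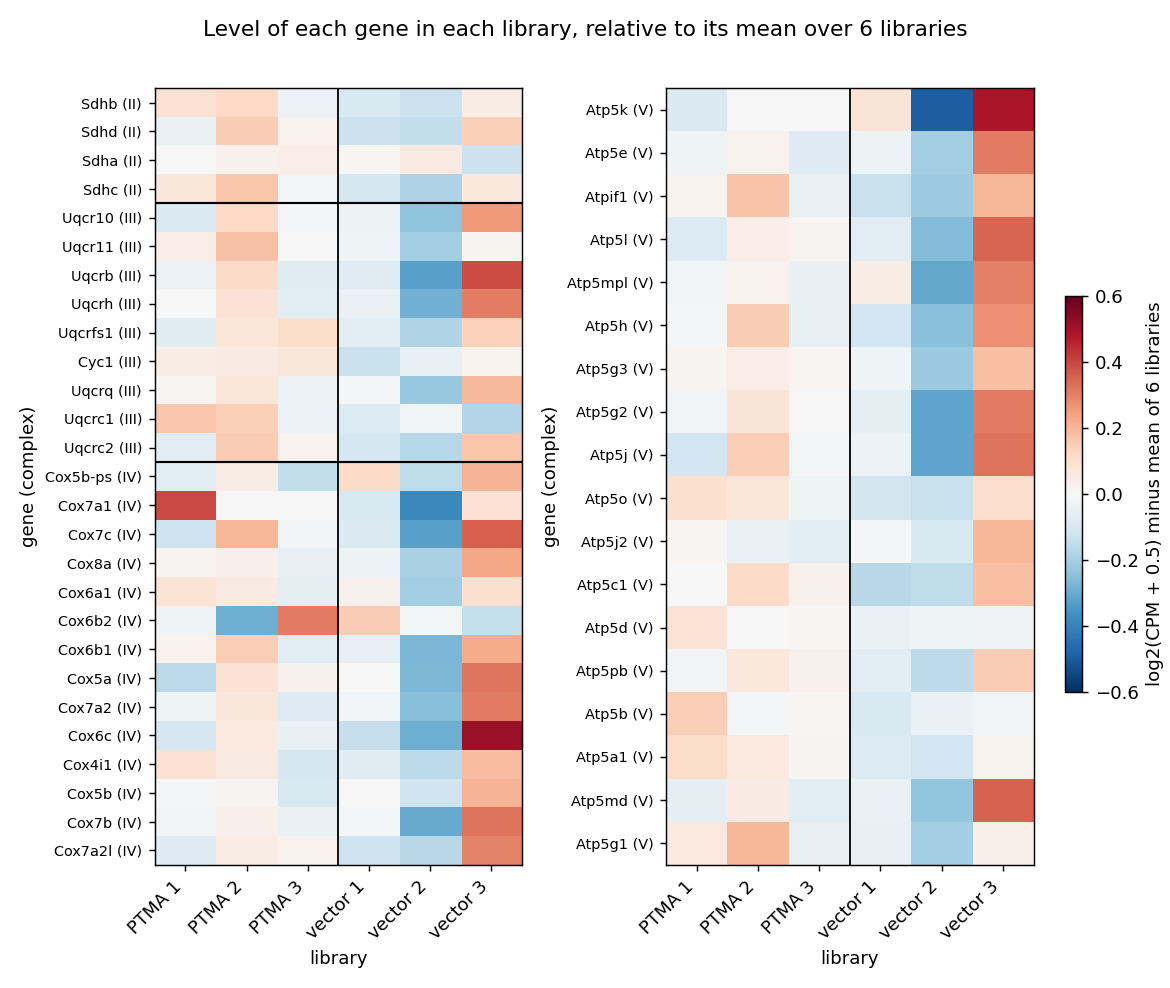
Level of each of the 45 genes (rows, within each complex from short to long main transcript) in each of the 6 libraries (columns, PTMA left of the line and vector right of it). Colour is log2(CPM + 0.5) minus the mean of that gene over the 6 libraries. Vector 2 is blue and vector 3 red in most rows, with median deviations over the 45 genes of -0.21 and 0.20, while the medians of the PTMA libraries lie between -0.02 and 0.06.

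Set side by side as single libraries, the 45 genes moved together in the vector group more than in the PTMA group. The median deviation from the mean of the 6 libraries was -0.01, 0.06 and -0.02 (log2) in PTMA 1 to 3, against -0.05, -0.21 and 0.20 in vector 1 to 3. Vector 3 exceeded vector 2 in 42 of the 45 genes, beside 49.1% of all genes tested, by a median ratio of 1.33. Vector 3 was the highest library in 32 genes, beside 22.4% of all genes, and vector 2 the lowest in 38, beside 20.6%. The ratio of the highest to the lowest library of a group had a median of 1.11 in PTMA and 1.33 in vector libraries. Over the 6148 genes with a mean of at least 30 CPM these medians were 1.11 and 1.17. The range was wider in vector than in PTMA libraries in 40 of the 45 genes, beside 69.4% of all genes.

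The same order of libraries appeared in other genes. Over 88 cytosolic ribosomal protein genes the median deviations were -0.04, 0.03 and -0.03 in PTMA 1 to 3, against -0.04, -0.21 and 0.28 in vector 1 to 3. Their summed level was 27930.3, 29193 and 27671 CPM in PTMA 1 to 3, against 27247, 24909 and 33577 CPM in vector 1 to 3. In the 3103 tested coding genes with the shortest main transcripts (204 to 1832 bases) the deviations of vector 2 and vector 3 were -0.09 and 0.09. Among the 45 genes, the 27 with a main transcript under 1000 bases had vector 2 lowest in 26 and vector 3 highest in 24, while the 18 longer ones had these in 12 and 8. Across the 45 genes, log2 transcript length and the log2 ratio of vector 3 to vector 2 had a Pearson r of -0.52 and a Spearman rho of -0.53, beside -0.35 and -0.38 across 12410 tested coding genes. These are descriptions across genes that share libraries, and genes are not independent replicates. Whether transcript length has a part in the pattern was not tested. Where coding transcripts of a gene ranked alike, the longest was used here and below. With the shortest, Uqcrq, Atp5d, Atp5g1 and Atp5md, at 405, 931, 596 and 352 bases, would fall under 1000. The splits and correlations were not repeated with those lengths.

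**Figure D3:**
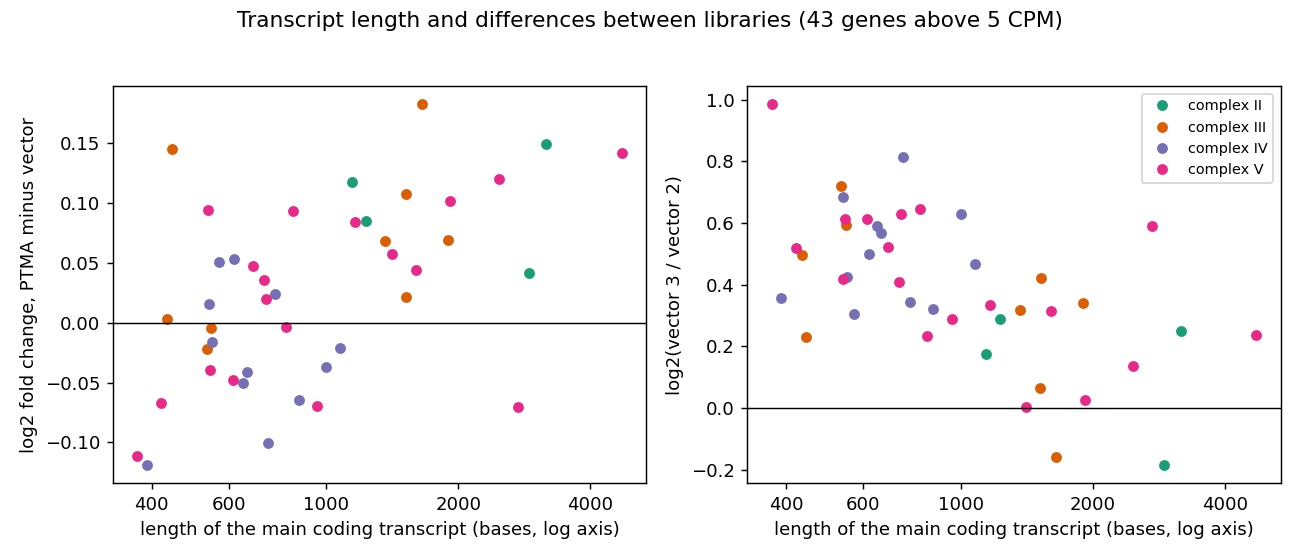
Length of the main coding transcript (x axis, log scale, bases) against the log2 fold change of PTMA minus vector (left) and against the log2 ratio of vector 3 to vector 2 (right), for 43 genes (Cox7a1 and Cox6b2, at few counts, are left out). Each point is a gene and colours are complexes. Atp5g1 and Atp5md, drawn at 4715 and 2733 bases, also have transcripts of equal rank with 596 and 352. Over these 43 genes Pearson r is 0.52 on the left and -0.59 on the right, and over all 45 genes it is 0.16 and -0.52.

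The comparison of PTMA with vector also differed between short and long transcripts. The 18 genes with a main transcript of at least 1000 bases had 15 positive log2 fold changes and a median of 0.08, and the 27 shorter ones 13 and a median of 0.00. Log2 length and log2 fold change had a Pearson r of 0.16 and a Spearman rho of 0.41 across the 45 genes, and of 0.52 and 0.49 across the 43 without Cox7a1 and Cox6b2. Between quartiles of all tested coding genes the medians fell with length, at 0.05, 0.04, 0.00 and -0.09 from the shortest to the longest. The shortest quartile spans 204 to 1832 bases and holds most of the 45 genes, and the longest spans 4351 to 123179. The trends thus cover unlike lengths, and the trend within the shortest quartile was not analysed here. Grouped by textbook role after the values had been seen, the 8 genes of catalytic and core subunits (Sdha, Sdhb, Uqcrc1, Uqcrc2, Cyc1, Uqcrfs1, Atp5a1 and Atp5b) were all positive, with a median of 0.10, and without vector 3 it was 7 of 8. These 8 include only main transcripts over 1000 bases, so role and length cannot be told apart within them. Among the other genes of at least 1000 bases, Sdhc, Sdhd, Uqcrq, Atp5c1, Atp5d, Atp5g1 and Atp5pb were positive. Cox7a2l, Cox7b and Atp5md were negative. The summed level of the 8 catalytic and core genes was 4896, 4736 and 4609.6 CPM in PTMA 1 to 3, against 4326, 4387 and 4498 CPM in vector 1 to 3, without overlap, a ratio of means of 1.08. Atp5b and Atp5a1 were the largest contributors to this sum. Of the 8 genes, 2 (Cyc1 and Atp5b) had all PTMA libraries above all vector libraries, beside 5.39% of all genes tested.

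Summed over each complex, PTMA and vector libraries differed by a few percent. Complex II summed to 1231, 1289 and 1219 CPM in PTMA 1 to 3, against 1165, 1162 and 1202 CPM in vector 1 to 3, a ratio of means of 1.06 with no overlap. In complex III the sums were 1703, 1782 and 1641 CPM in PTMA 1 to 3, against 1555, 1515 and 1696 CPM in vector 1 to 3, a ratio of 1.08, and vector 3 lay within the PTMA range. For complex IV they were 1784, 1865 and 1722 CPM in PTMA 1 to 3, against 1734, 1538 and 2123 CPM in vector 1 to 3, a ratio of 0.995, with the PTMA libraries between vector 2 and vector 3. ATP synthase summed to 5273, 5192 and 5034 CPM in PTMA 1 to 3, against 4749, 4599.8 and 5359 CPM in vector 1 to 3, a ratio of 1.05, with vector 3 the highest library. Over all 45 genes the sums were 9991, 10128 and 9616 CPM in PTMA 1 to 3, against 9204, 8816 and 10380.0 CPM in vector 1 to 3. Atp5b and Atp5a1 were the largest contributors to the sum of complex V.

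**Figure D4:**
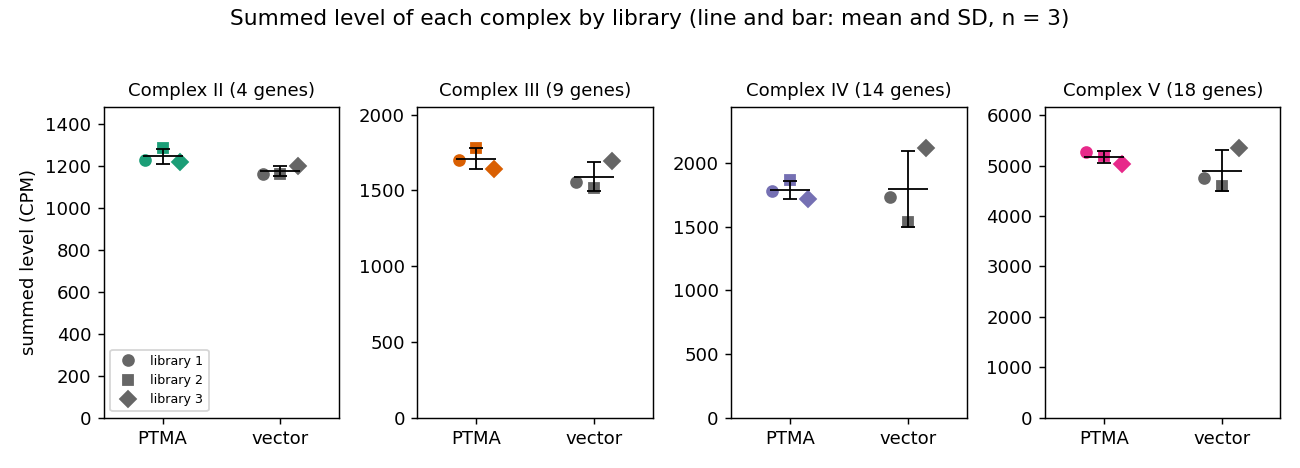
Summed level in CPM (y axis, from 0) of the genes of each complex in each library, with PTMA left and vector right in each panel. Points are libraries, marked by replicate number, and lines and bars are the mean and SD of 3 libraries. The vector libraries span 1538 to 2123 CPM in complex IV and the PTMA libraries 1722 to 1865 CPM.

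Leaving out single libraries changed the direction of the comparison. Without vector 3, 42 of the 45 genes had positive log2 fold changes, and 0 passed adjustment in edgeR, with Atp5c1 having the smallest adjusted p, 0.206. In that fit 16 of the 45 had an unadjusted p under 0.05, beside 15.4% of all genes tested. The medians were then 0.18, 0.16, 0.13 and 0.16 in complexes II, III, IV and V, beside -0.01 for all genes. For tested coding genes with main transcripts of 204 to 1832 bases the median was then 0.12. Without vector 2, 18 of 45 were positive, 1 had an unadjusted p under 0.05 (Uqcrc1), beside 3.97% of all genes tested, and the medians were 0.09, 0.01, -0.11 and -0.05. Without PTMA 2, 22 of 45 were positive, and the median over the 45 genes was -0.005. Without vector 1, PTMA 1 or PTMA 3, 23, 30 and 32 were positive. With each of the 6 libraries left out in turn, 28 genes changed sign at least once, 1, Cox5b-ps, stayed negative and 16 stayed positive. Over all genes 28.8% stayed negative and 26.3% positive. The 16 genes were Sdhb, Sdhc, Sdhd, Cyc1, Uqcr11, Uqcrc1, Uqcrc2, Uqcrfs1, Cox7a1, Atp5a1, Atp5b, Atp5c1, Atp5d, Atp5g1, Atp5o and Atpif1.

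Levels between genes depended on the length by which counts were divided. The deposited FPKM correspond to the union of all exons of a gene, with an implied length 1.10 times the GENCODE M21 union in the median of the 45 genes, so that retained introns add to the length. By FPKM, mean over the 6 libraries, Atp5b (329), Cox6a1 (316), Cox8a (294) and Atp5a1 (288) were highest, and all genes but Cox7a1 and Cox6b2 were above 10. Divided by the length of the main coding transcript, the highest levels were 810 CPM per kb for Atp5b, 446 for Cox4i1, 439 for Atp5g3 and 433 for Cox6a1. Atp5l, subunit g, was the most affected, at 13.9 FPKM but 184 CPM per kb of main transcript, since its exon union measures 6443 bases and its main transcript 544. Atp5g1 has a main transcript of 4715 bases in GENCODE and one of equal rank with 596, which give 27.6 and 218 CPM per kb. Atp5md gave 12.3 and 95.1 in the same way, for 2733 and 352 bases. Comparisons of 1 gene between libraries do not depend on which length is used as the divisor.

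**Figure D5:**
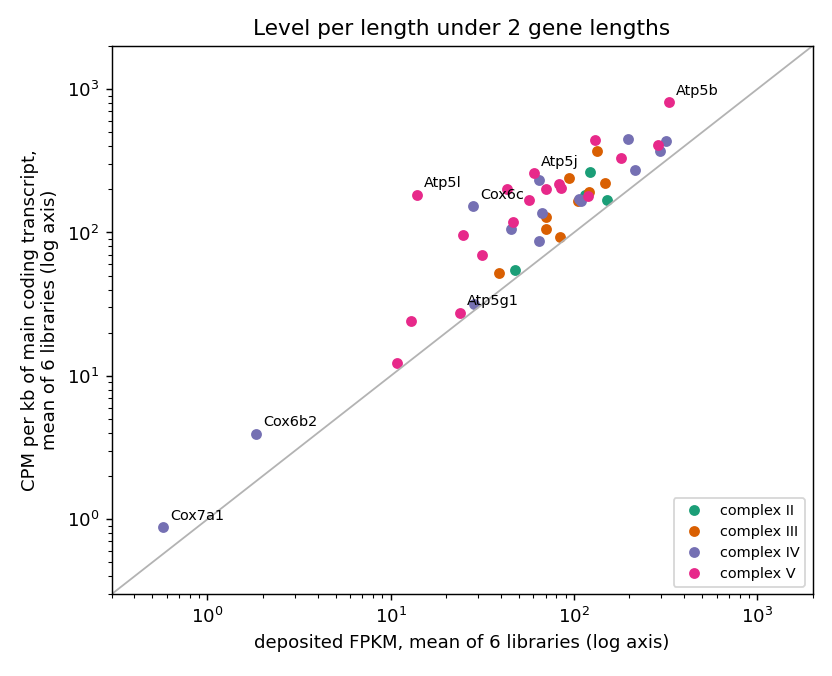
Deposited FPKM (x axis, log scale) against CPM per kb of the main coding transcript (y axis, log scale), each the mean of 6 libraries, for the 45 genes coloured by complex. The grey line marks equal values. Atp5l lies farthest above it, at 13.9 FPKM and 184 CPM per kb, and Cox7a1 and Cox6b2 lie at the lower left.

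The other genes of the pathway also had no gene past the threshold. The list for complex I took coding genes with names beginning with Nduf, so it also holds assembly factors (Ndufaf1 to Ndufaf8), Ndufa4 and Ndufa4l2. Of these 47 genes, 29 were positive and 18 negative, with a median of 0.03 and 1 unadjusted p under 0.05. That gene, Ndufs7, an iron-sulfur subunit, stood at 125, 133 and 123 CPM in PTMA 1 to 3, against 110.4, 114 and 111 CPM in vector 1 to 3, without overlap (log2 fold change 0.19, SE 0.07, adjusted p = 0.951). Of the 13 mitochondrially encoded mRNAs, 10 were positive, with a median of 0.09, and vector 3 was the highest library in 12. Their summed level was 15747, 19687 and 19497 CPM in PTMA 1 to 3, against 15940.3, 15348 and 21126 CPM in vector 1 to 3. mt-Co2, the member with the smallest p, is a core subunit of complex IV and stood at 969, 1082 and 1073 CPM in PTMA 1 to 3, against 929, 828 and 1113 CPM in vector 1 to 3 (0.12, SE 0.10). Cycs, cytochrome c, stood at 242, 279.8 and 251 CPM in PTMA 1 to 3, against 215, 209 and 294 CPM in vector 1 to 3 (0.11, SE 0.13).

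Among assembly factors, 2 of 4 genes for complex II, 3 of 6 for complex III, 13 of 21 tested for complex IV and 2 of 3 for ATP synthase were positive. The members with the smallest p-values were Sdhaf1 (log2 fold change 0.11, SE 0.10), Ttc19 (-0.21, SE 0.12), Cox11, which delivers copper to complex IV (0.22, SE 0.15), and Atpaf1, a chaperone of the F1 head (0.15, SE 0.09). Ttc19, known for the upkeep of complex III, stood at 11.5, 11.3 and 12.8 CPM in PTMA 1 to 3, against 13.4, 15.2 and 12.6 CPM in vector 1 to 3. Both supercomplex genes, Higd1a and Higd2a, had log2 fold changes near 0, and Higd2a stood at 61.0, 62.8 and 61.9 CPM in PTMA 1 to 3, against 59.3, 54.6 and 69.8 CPM in vector 1 to 3 (0.02, SE 0.10). Adjusted p-values of the genes named here were 0.951 or more, and 0 of the listed genes passed the threshold in edgeR.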

How the data were processed

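The authors deposited 1 table, which holds a raw count for each gene in each library, without normalization. Beside each count the deposited table gives an FPKM, per the file headers, which also divides by library size and gene length. Poly(A) RNA was sequenced in pairs on an Illumina instrument, per the labels' protocols. The submitters' processing notes name the build mm8 and the tools Bowtie 0.12.2, HISAT2 2.0 and StringTie 1.3.0. How reads were counted, and whether by strand, is not given in the sources used here. Coordinates are on GRCm38, since 99.7% of the 27405 gene identifiers present in GENCODE M21 had the start or end given there. Members were taken as rows whose transcript types include protein_coding, since 37 of the 45 list further types.

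Counts of all 6 libraries were tested with edgeR 4.0.16 (R 4.3.3), by the quasi-likelihood test after TMM scaling and filterByExpr (minimum count 10). Group was the single term. P-values were adjusted by Benjamini-Hochberg over 16592 genes with a threshold of 0.05. SE is the log2 fold change divided by the root of the F statistic. Library deviations use log2(CPM + 0.5). The main transcript is the principal coding transcript of GENCODE M21, with the longest coding sequence and then the longest transcript where several rank alike. The members, the lists and the named genes were chosen with earlier results of these data known. The named genes are, per complex, those with the smallest p, the largest fold change and the highest FPKM, the isoform families, Atpif1, and the member with the smallest p of each further list. The deviations of libraries with the same number correlated at -0.09, -0.20 and -0.17 over 12344 genes, and the main fit used no pairing by number. With 3 libraries per group, these values cannot show whether libraries of the same number shared an origin. Replicates differed by a chi-square per gene of 17.7 to 84.8, so no library was a copy of another. The procedure was tested on simulated counts. Alternatives were other scalings, no filter, DESeq2 1.42.0, limma 3.58.1 on log2(FPKM + 1) and log2(FPKM + 0.1), a replicate block and leaving out each library. A count of 0 allows up to 3 counts, 0.0449 to 0.0546 CPM in a library, which covers counting error only. Identity between protein sequences was not analysed here.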

Additional observations from a re-analysis of the deposited data

How the results depend on the processing

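No member passed the threshold in any of 14 alternative fits. Over all genes 2 passed in edgeR, 0 with no filter on low counts, 47 with DESeq2, 1 with limma on log2(FPKM + 1), 1 with log2(FPKM + 0.1), 0 with limma and no filter, and 0 to 4 when single libraries were left out. With the replicate block 0 genes and 0 members passed, and 30 members were positive. The number of positive members, 28, was 23, 18 and 42 without vector 1, 2 and 3, and 30, 22 and 32 without PTMA 1, 2 and 3. Under every alternative the complexes' medians moved from the values reported by less than the spread between libraries. That spread was the SD of the library medians, 0.09, 0.14, 0.17 and 0.15 in complexes II, III, IV and V. It includes the library left out, so for fits without a library the comparison cannot show that the medians were stable. In those fits the medians of complexes IV and V changed sign, running from -0.11 to 0.13 and -0.05 to 0.16. Libraries scaled to the same sum moved the median of all genes by 0.03 and left 22 members positive.

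Of 27 named genes, 11 changed sign under some alternative, and the cause was not tested. With libraries scaled to the same sum, Uqcr10 was at -0.021, Cox4i1 at -0.0016, Cox6b2 at -0.010, Atp5g2 at -0.0039 and Higd2a at -0.0094. Cox6b2 was also at -0.0042 with limma on log2(FPKM + 1), with and without its filter, -0.014 with log2(FPKM + 0.1) and -0.0087 with the replicate block. Leaving out single libraries gave -0.10 to 0.15 for Uqcr10, -0.025 to 0.12 for Cox6a1, -0.037 to 0.13 for Cox4i1, -0.051 to 0.19 for Cox6b1 and -0.18 to 0.18 for Cox6b2. The same gave -0.16 to 0.12 for Cox7a2, -0.17 to 0.14 for Cox7b, -0.10 to 0.11 for Cox8a, -0.11 to 0.21 for Atp5g2, -0.051 to 0.15 for Atp5g3 and -0.051 to 0.12 for Higd2a.

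With 3 libraries per group and a median SE of 0.11 on the log2 scale, differences of a few percent were not detectable for single genes. Larger ones could be missed too, as Ptma with a log2 fold change of 0.44 (SE 0.13) had an adjusted p of 0.951 in edgeR. The lack of calls thus does not show that the 45 genes were unchanged. The lowest counts in a library were 9 for Cox7a1, 116 for Cox6b2 and 393 for Atp5k, which had the largest SEs of the 45 genes.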

Other observations

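The 9 pseudogene rows that carry names of these genes without a coding transcript were at low levels, and 6 of them passed the filter. Their summed level was 5.51, 5.55 and 6.10 CPM in PTMA 1 to 3, against 5.61, 4.01 and 7.11 CPM in vector 1 to 3. Vector 2 was lowest and vector 3 highest, the order seen in most of the 45 genes. None of the 6 passed edgeR's test, and 0 had an unadjusted p under 0.05.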
